A study of Sus scrofa with 13 samples.

Results

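Endothelial genes, whose transcripts mark the cells that line the capillaries and larger vessels, were followed in the loin muscle of 13 pigs. The list held 10 symbols, PECAM1, CDH5, KDR, FLT1, TEK, TIE1, VWF, ENG, EMCN and ESAM, and a gene was kept where its symbol was matched in the count tables of both breeds. In total, 7 of the 10 were kept, of 25322 genes in the tables, and no row was matched to CDH5, VWF or EMCN, so the values below cover 7 genes and not the whole list. The muscle was longissimus lumborum of female pigs aged 6 months, taken at slaughter from Hampshire pigs with high (pigs 8, 9 and 10) or low loin weight (pigs 1, 2 and 3), and from Pietrain pigs with high (pigs 1, 2, 6 and 7) or low loin weight (pigs 3, 5 and 8). Pig numbers run within a breed. Groups follow the labels, and the study's own table of loin weights counts fewer pigs in the Pietrain high group. The pigs had been chosen from a larger population for extreme loin weights, shared housing and feed, were described as unrelated, and received no treatment, so loin weight is a selected trait here. The question was whether the level of vessel transcripts differed with loin weight within a breed or between the breeds.

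In skeletal muscle, capillaries run along the fibres and deliver oxygen and nutrients, and oxidative fibres usually have more of them than glycolytic fibres. Endothelial cells are joined by adhesion proteins, and their growth and rest are set mainly by receptors for vascular endothelial growth factors, for angiopoietins and for BMP ligands. RNA of whole tissue cannot tell fewer endothelial cells from less RNA per cell, and no vessel was counted.

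Each library held between 11312755 and 20134612 assigned counts (median 14055410), and in all 15 pairs of pigs within a group the counts were farther apart than sampling noise gives. Values are given as CPM, read counts relative to library size after TMM scaling, which corrects for differences in library composition. Calls needed a fold change of 1.2 or more, and an adjusted p under 0.05, in edgeR's quasi-likelihood test, adjusted by Benjamini-Hochberg over all genes tested. All 7 genes passed the filter on low counts in every comparison, with between 18 (FLT1 in Pietrain pig 5) and 1968 counts (PECAM1 in Hampshire low pig 2) in a library. CPM are not divided by transcript length, so levels are compared between pigs and not between genes.

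On the Sscrofa10.2 assembly, the genes lay on separate chromosomes, except that TEK and ENG shared 1. The 4 receptor tyrosine kinases were KDR (ENSSSCG00000008844, chr8:43919343-43966974), FLT1 (ENSSSCG00000009320, chr11:5316370-5455380), TEK (ENSSSCG00000005122, chr1:218224162-218500245) and TIE1 (ENSSSCG00000003950, chr6:155288383-155321728). The co-receptor ENG (ENSSSCG00000005625) lay at chr1:302232063-302266135. Of the adhesion genes, PECAM1 (ENSSSCG00000017277) lay at chr12:14660875-14717153 and ESAM (ENSSSCG00000015200) at chr9:57498520-57507892.

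TIE1, the partner receptor of TEK, was the 1 gene of the 7 called between loin weight groups, in Hampshire, where 26.6% of all genes tested were called. It stood at 12.4, 14.9 and 17.3 CPM in Hampshire high pigs 8, 9 and 10 and at 7.77, 9.37 and 10.8 CPM in Hampshire low pigs 1, 2 and 3. All 3 high pigs were above all 3 low pigs, and 45.9% of all genes likewise had no overlap in this comparison. The log2 fold change was 0.68 (SE 0.206, 95% confidence interval 0.21 to 1.15, adjusted p = 0.0407). The exact two-sided permutation p was 0.1, the smallest that 3 pigs against 3 allow. Leaving out high pig 9, high pig 10 or any of low pigs 1, 2 and 3 ended the call, with adjusted p of 0.0966, 0.133, 0.13, 0.0903 and 0.0761 in that order, and leaving out high pig 8 did not (0.0393). In Pietrain, TIE1 stood at 6.29, 10.9, 4.54 and 5.05 CPM in high pigs 1, 2, 6 and 7 and at 7.55, 2.45 and 5.37 CPM in low pigs 3, 5 and 8, and the groups overlapped (log2 fold change 0.40, 95% confidence interval -0.54 to 1.35, adjusted p = 0.939).

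TEK, the receptor that binds the angiopoietins, stood in Hampshire at 14.9, 16.9 and 10.99 CPM in the high pigs and at 14.5, 13.6 and 13.8 CPM in the low pigs. The low pigs lay inside the range of the high pigs. The log2 fold change was 0.02, with a 95% confidence interval of -0.41 to 0.46. In Pietrain, TEK stood at 12.6, 21.9, 17.3 and 9.39 CPM in the high pigs and at 16.1, 9.97 and 21.0 CPM in the low pigs, again with overlap (log2 fold change -0.02, 95% confidence interval -0.75 to 0.72). The 4 group means, 14.3 ± 3.01 and 13.9 ± 0.496 CPM (SD, n = 3 each) in Hampshire high and low and 15.3 ± 5.48 (n = 4) and 15.7 ± 5.54 CPM (n = 3) in Pietrain high and low, differed by less than the SD of either Pietrain group.

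KDR, the main signalling receptor for VEGFA, did not separate the groups. In Hampshire it stood at 15.0, 11.4 and 10.5 CPM in the high pigs and at 13.2, 15.5 and 10.4 CPM in the low pigs (log2 fold change -0.09, 95% confidence interval -0.58 to 0.39, adjusted p = 0.781). Pietrain pigs spread further for KDR, from 8.10 to 20.0 CPM in the high group (pigs 1, 2, 6 and 7 at 8.10, 14.3, 20.0 and 10.99) and from 6.96 to 22.9 CPM in the low group (pigs 3, 5 and 8 at 22.9, 6.96 and 9.47). The highest and the lowest KDR values of all 13 pigs were thus found in the same group, Pietrain low.

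FLT1, which binds VEGF ligands and acts in part as a decoy for them, stood in Hampshire at 5.78, 6.00 and 7.99 CPM in the high pigs and at 6.00, 7.92 and 6.16 CPM in the low pigs. These groups shared nearly the same range (log2 fold change -0.02, 95% confidence interval -0.55 to 0.51, adjusted p = 0.955). In Pietrain, FLT1 ran from 4.02 to 11.6 CPM in the high pigs (8.03, 11.6, 4.02 and 4.20) and from 1.42 to 10.7 CPM in the low pigs (10.7, 1.42 and 6.52), and the interval of the log2 fold change was the widest of the 7 genes, from -1.11 to 1.47 around 0.18.

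ENG, the endothelial co-receptor for BMP and TGF-beta ligands, stood in Hampshire at 45.5, 53.0 and 70.6 CPM in the high pigs and at 28.5, 43.2 and 38.6 CPM in the low pigs. No high pig fell to the level of a low pig, but the difference missed the threshold (log2 fold change 0.62, SE 0.222, 95% confidence interval 0.12 to 1.12, adjusted p = 0.0675, exact permutation p = 0.1). It was called by DESeq2 (adjusted p = 0.0428) and after removal of the trend with gene length described further on (0.0337). In Pietrain, ENG stood at 16.2, 26.6, 16.3 and 20.5 CPM in the high pigs and at 25.1, 6.57 and 19.8 CPM in the low pigs, with overlap (log2 fold change 0.24, 95% confidence interval -0.64 to 1.11, adjusted p = 0.946). All 7 Pietrain pigs lay below the lowest Hampshire pig for ENG, in either loin weight group. Of all genes, 48.6% had no overlap between the breeds at high and 42.8% at low loin weight. The share without overlap over both loin weight groups together was not counted, so how common this separation was remains unknown.

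ESAM, an adhesion molecule of endothelial tight junctions, was even across the Hampshire high pigs, at 25.6, 24.0 and 23.8 CPM. Hampshire low pigs stood at 17.4, 21.7 and 17.5 CPM, below all 3 high pigs, and the difference missed the threshold (log2 fold change 0.37, SE 0.160, 95% confidence interval 0.01 to 0.73, adjusted p = 0.115, exact permutation p = 0.1). In Pietrain, ESAM stood at 9.47, 16.9, 13.0 and 9.89 CPM in the high pigs and at 18.3, 6.17 and 14.8 CPM in the low pigs, and the groups overlapped (log2 fold change -0.07, 95% confidence interval -0.87 to 0.73).

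PECAM1, a junction protein found on nearly all endothelial cells and also on platelets and leukocytes, stood in Hampshire at 101, 116 and 124 CPM in the high pigs and at 115, 95.6 and 80.0 CPM in the low pigs. Low pig 1 lay inside the range of the high pigs (log2 fold change 0.23, 95% confidence interval -0.19 to 0.66, adjusted p = 0.385). In Pietrain, PECAM1 stood at 65.7, 110, 92.5 and 74.7 CPM in the high pigs and at 117, 44.5 and 94.1 CPM in the low pigs, and the fitted difference was close to 0 (log2 fold change 0.03, 95% confidence interval -0.67 to 0.74).

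**Figure D1:**
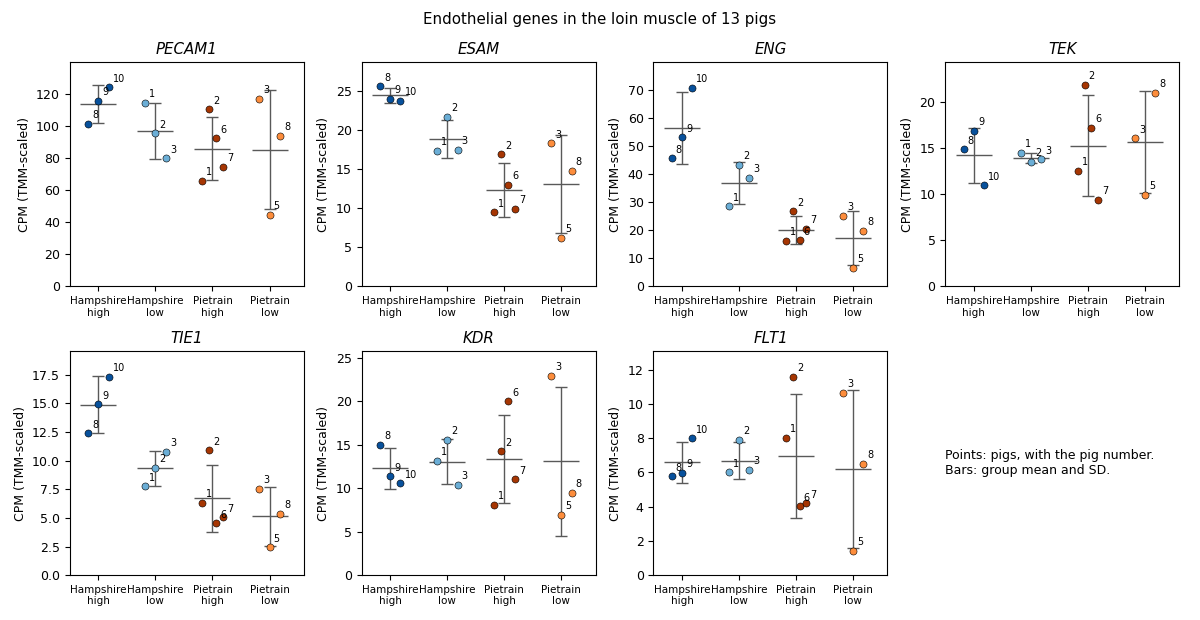
CPM of the 7 endothelial genes in each pig, with 1 panel per gene, the 4 groups on the horizontal axis and CPM after TMM scaling on the vertical axis from 0. Points are pigs with their numbers, and bars are the group mean and SD. On this scale TIE1, ENG and ESAM do not overlap between Hampshire high and low, which they do without TMM factors. Pietrain low pig 5 is the lowest point for every gene except TEK.

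Between high and low loin weight in Hampshire, 1 of the 7 genes was called, against 26.6% of the 12228 genes tested. TIE1, ENG and ESAM, 3 of the 7, were without overlap, against 45.9% of all genes, and 3 of the 7 had an unadjusted p under 0.05, against 41.2%. The share of called genes was below that of the whole table, and the shares without overlap and with an unadjusted p under 0.05 were close to it. Without TMM factors all 3 genes overlapped. Low pig 3 then stood at 11.68 CPM for TIE1, beside 11.67 in high pig 8. Low pig 2 stood at 45.2 CPM for ENG, beside 42.9 in high pig 8, and at 22.7 for ESAM, beside 19.5 in high pig 9. The share of all genes without overlap was not counted on that scale. The median log2 fold change of the 7 genes was 0.23, beside 0.03 over all genes tested. The count of called genes was 0 in a fit over all 13 pigs, where TIE1 had an adjusted p of 0.208, and 2 (TIE1 and ENG) with DESeq2.

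Between high and low loin weight in Pietrain, 0 of the 7 genes were called by edgeR or by DESeq2, and 0 had an unadjusted p under 0.05. Over the 12065 genes tested, edgeR called 0 and DESeq2 1, 3.3% had an unadjusted p under 0.05 in edgeR, and 4.6% did not overlap between the groups. The study, using DESeq2 at the same thresholds, reported differentially expressed genes in Pietrain, and more of them than in Hampshire. The cause of this difference from the counts here was not tested. All 7 endothelial genes overlapped, with a median log2 fold change of 0.05 beside 0.02 over all genes. This median rested on single pigs. It was -0.27 without low pig 5, 0.64 without low pig 3 and -0.09 without high pig 2, and still 0 of the 7 genes were called.

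The loin weight effect was then compared between the breeds by an interaction term over all 13 pigs. None of the 7 genes passed in edgeR (0 of 7, with 0 at an unadjusted p under 0.05) or in DESeq2 (0), against 5.9% of the 12831 genes tested in edgeR, 1.68% with a larger effect in Hampshire, and 22.1% at an unadjusted p under 0.05. For TIE1 the difference between the breeds' effects had an adjusted p of 0.787, for ENG 0.691 and for ESAM 0.576. A call in Hampshire and none in Pietrain is therefore not a tested difference between the breeds.

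Between the breeds at high loin weight, 3 of the 7 genes were called, all higher in Hampshire, against 46.8% of all genes called in either direction and 22.6% called higher in Hampshire. The same 3 had an unadjusted p under 0.05, against 54% of all genes. ENG was 2.83-fold higher, with means of 56.4 ± 12.9 CPM (SD, n = 3) in Hampshire and 19.9 ± 4.91 CPM (n = 4) in Pietrain (log2 fold change 1.50, SE 0.340, adjusted p = 0.0028). TIE1 was 2.23-fold higher, with means of 14.9 ± 2.46 and 6.69 ± 2.90 CPM (log2 fold change 1.15, SE 0.343, adjusted p = 0.0136), and ESAM 1.99-fold higher, with means of 24.4 ± 0.995 and 12.3 ± 3.44 CPM (log2 fold change 0.99, SE 0.294, adjusted p = 0.0136). For these 3 genes no Hampshire pig overlapped a Pietrain pig, as for 48.6% of all genes, and the exact permutation p was 0.0571, the smallest that 3 pigs against 4 allow. Without TMM factors, TIE1 overlapped (Hampshire high pig 8 at 11.7 CPM, Pietrain high pig 2 at 12.1), and ENG and ESAM did not. The call was lost for TIE1 without Hampshire high pig 10 (adjusted p = 0.0672) and for ESAM with the length trend removed (0.0696). The other 4 genes overlapped, with log2 fold changes of 0.41 for PECAM1 (95% confidence interval -0.18 to 0.99), -0.12 for KDR (-0.91 to 0.68), -0.07 for FLT1 (-1.13 to 0.98) and -0.10 for TEK (-0.72 to 0.52), and the last 3 turned to 0.29, 0.44 and 0.42 with the length trend removed.

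Between the breeds at low loin weight, 0 of the 7 genes were called by edgeR and 1 (ENG) by DESeq2, against 17.9% of all genes in edgeR and 7.84% called higher in Hampshire, while 2 of the 7 had an unadjusted p under 0.05, against 35.9%. ENG had means of 36.8 ± 7.50 CPM in Hampshire and 17.1 ± 9.54 CPM in Pietrain (SD, n = 3 each) and missed the threshold (log2 fold change 1.10, SE 0.371, adjusted p = 0.0529). TIE1 had means of 9.31 ± 1.51 and 5.13 ± 2.56 CPM (log2 fold change 0.86, SE 0.378, adjusted p = 0.118). Neither gene overlapped between the breeds, as for 42.8% of all genes (exact permutation p = 0.1, the smallest possible). Without Pietrain low pig 3, both ENG (log2 fold change 1.53, adjusted p = 0.0242) and TIE1 (1.29, 0.0444) were called, and without Pietrain low pig 5 they were not and the log2 fold changes were 0.71 and 0.52. With all pigs, 2300 of 12831 genes were called. That count was 2611 of 13245 without Pietrain low pig 3 and 163 of 13239 without Pietrain low pig 5. ENG was also called without Pietrain high pig 6 (adjusted p = 0.0429). The count tables were deposited by breed, so the breed and whatever differed between the tables cannot be told apart.

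**Figure D2:**
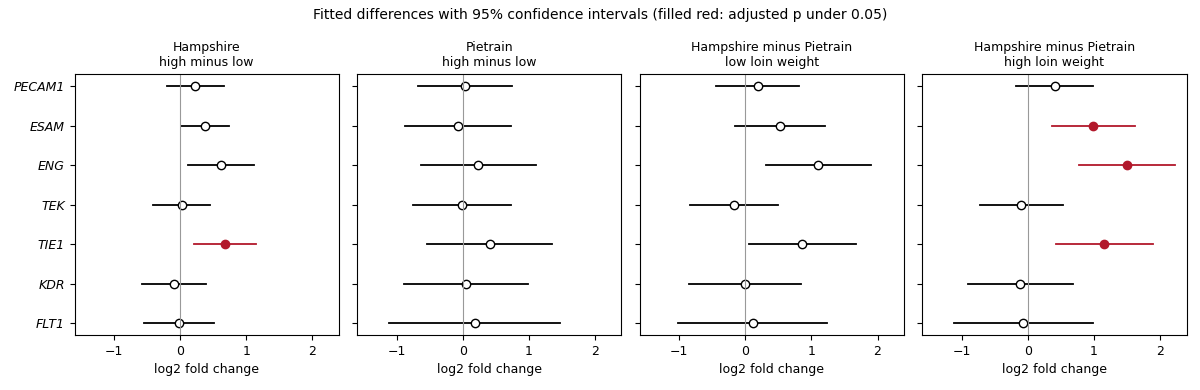
Log2 fold changes of the 7 endothelial genes (horizontal axis) in 4 comparisons, with 95% confidence intervals as lines, and filled red points for called genes. TIE1 is filled in Hampshire, ENG, TIE1 and ESAM between the breeds at high loin weight, and the Pietrain intervals are the widest of the within-breed panels.

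The pigs were next compared over the 7 genes together, using log2 CPM minus the mean of each gene over the 13 pigs. The mean of the 7 centred values ran from 0.35 to 0.47 in Hampshire high pigs, from 0.09 to 0.29 in Hampshire low pigs, from -0.45 to 0.35 in Pietrain high pigs and from -1.26 to 0.31 in Pietrain low pigs. Hampshire high pigs 10 and 9 ranked 1 and 2 of the 13 pigs, but Pietrain high pig 2, at 0.35, and Pietrain low pig 3, at 0.31, lay above all 3 Hampshire low pigs. The other Pietrain pigs lay below every Hampshire pig, high pigs 1, 6 and 7 at -0.37, -0.19 and -0.45 and low pigs 5 and 8 at -1.26 and -0.10. No Pietrain pig fell inside the range of Hampshire low.

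Pietrain low pig 5 stood apart at -1.26. It was the lowest of all 13 pigs for 6 of the 7 genes, the exception being TEK, for which Pietrain high pig 7 was lowest. Over all genes tested, pig 5 was lowest for 11.5% and highest for 17.0%. Its median centred value was 0.02, but TMM scaling brings this median near 0 in every pig, so it cannot show a shift of the whole table. Its library held 14055410 counts, the median depth. The centred values of pig 5 ran from -0.51 for TEK to -1.96 for ENG. Pig 5 also had the lowest mean centred value for 9 of the 16 other lists described further on, among them the 19 other endothelial markers (-0.78), pericytes and smooth muscle (-0.68), junction partners (-0.65), VEGF ligands and co-receptors (-0.64) and Notch genes (-0.62). By summed level, pig 5 ranked 13 of the 13 pigs for the other endothelial markers, 12 for pericytes and for VEGF genes, and 10 for Notch genes. It ranked 9 for junction partners, 7 for transcription factors and 1, the highest, for the ENG and BMP pathway. The mean of the 5 muscle fibre genes was -1.63, although their summed level in pig 5 ranked 9 of 13 and its CKM level of 17155 CPM lay inside the range of the other Pietrain pigs. Its MYH7 level, the myosin of slow fibres, was 6.57 CPM, while the other 12 pigs held between 340 and 6955 CPM (the reference table names this identifier MYH6, so its identity is uncertain). The part of these differences in the endothelial values was not tested.

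**Figure D3:**
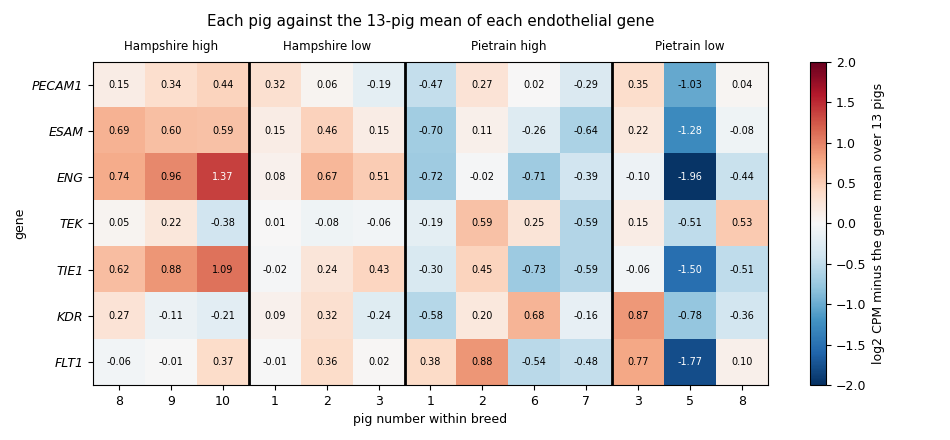
Log2 CPM minus the mean of the gene over 13 pigs, with genes in rows and pigs in columns by group, red above and blue below the mean. The column of Pietrain low pig 5 is blue for all 7 genes, down to -1.96 for ENG, while KDR, FLT1 and TEK have no column pattern that follows the groups.

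Fold changes across the whole table moved with gene span, the distance from the start to the end of the gene. Genes were divided by span into 5 classes of about equal size. In the Hampshire comparison, the median log2 fold change was 0.45 in the class with the shortest span and -0.34 in the class with the longest, and between the breeds at high loin weight these medians were 0.66 and -0.52. ESAM spans 9.37 kb and falls in class 2, while TIE1 (33.3 kb), ENG (34.1 kb), KDR (47.6 kb) and PECAM1 (56.3 kb) fall in class 4, and FLT1 (139 kb) and TEK (276 kb) in class 5, the longest. The TIE1 and ENG changes of 0.68 and 0.62 in Hampshire thus stood beside a median of -0.19 among genes of their span, and their breed differences of 1.15 and 1.50 beside -0.33. ESAM, at 0.37 in Hampshire, stood beside 0.25.

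With the trend removed, the 7 log2 fold changes in Hampshire were all above 0, from 0.17 for KDR and 0.18 for ESAM to 0.79 for ENG and 0.85 for TIE1. KDR (from -0.09) and FLT1 (from -0.02 to 0.35) changed sign, and 2 genes, TIE1 (adjusted p = 0.0223) and ENG (0.0337), were called. Over all genes tested with the trend removed, 2312 of 9945 were called in Hampshire, 1023 as higher and 1289 as lower. Between the breeds at high loin weight, PECAM1 was then called as higher in Hampshire (log2 fold change 0.86, adjusted p = 0.0183), ESAM no longer was (0.69, 0.0696), and ENG (1.77, 0.001) and TIE1 (1.42, 0.0045) were called as before. In that breed comparison 4825 of 9975 genes were called with the trend removed, 2350 as higher in Hampshire. The source of the trend was not tested.

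**Figure D4:**
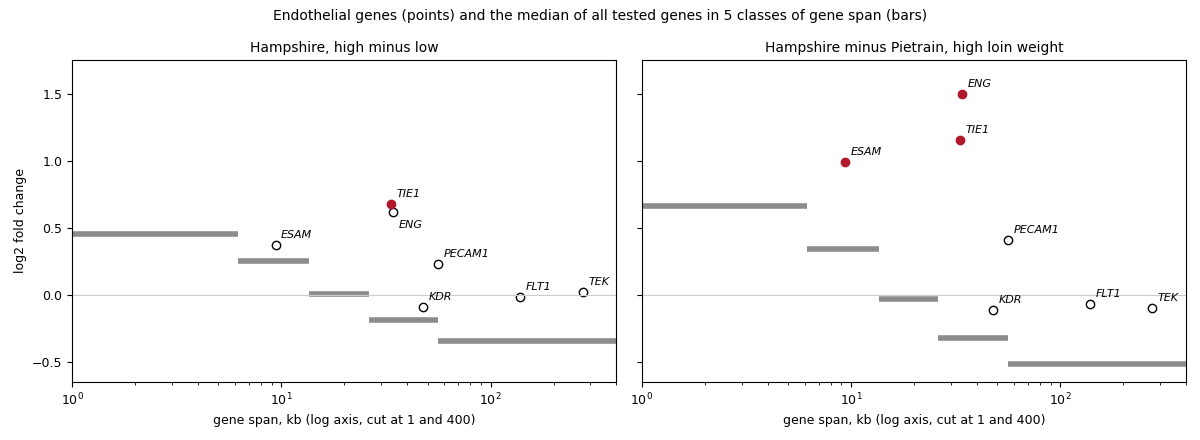
Log2 fold change of the 7 endothelial genes (points, filled red where called) against gene span in kb on a log axis, with bars for the median of all tested genes in each of 5 classes of span, in Hampshire (left) and between the breeds at high loin weight (right). The bars step down from 0.45 to -0.34 and from 0.66 to -0.52, and all 7 points lie above the bar of their class in both panels.

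Some pairs of the genes kept their proportion from pig to pig and others did not. Ratios of counts within a library, chosen after the values were seen and given without a test, need no scaling between pigs. TIE1 per TEK was 0.831 to 1.58 in Hampshire high, 0.536 to 0.782 in Hampshire low, 0.263 to 0.537 in Pietrain high and 0.246 to 0.469 in Pietrain low. The lowest Hampshire pig (low pig 1) and the highest Pietrain pig (high pig 7) thus had nearly the same ratio, and the other pigs of the breeds did not overlap. ENG per PECAM1 was 0.449 to 0.568 in Hampshire high, 0.249 to 0.482 in Hampshire low, 0.176 to 0.275 in Pietrain high and 0.147 to 0.215 in Pietrain low, so only Hampshire low pig 1 fell into the Pietrain range.

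ESAM per PECAM1 was nearly constant in Pietrain, from 0.132 to 0.153 in the high pigs and from 0.139 to 0.157 in the low pigs. Pig 5, at 0.139, lay inside this range although both of its genes were the lowest of all pigs. In Hampshire the same ratio was 0.191 to 0.253 in the high pigs and 0.152 to 0.227 in the low pigs. FLT1 per KDR overlapped across all 4 groups, with 0.386 to 0.758 in Hampshire high and 0.201 to 0.991 in Pietrain high.

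**Figure D5:**
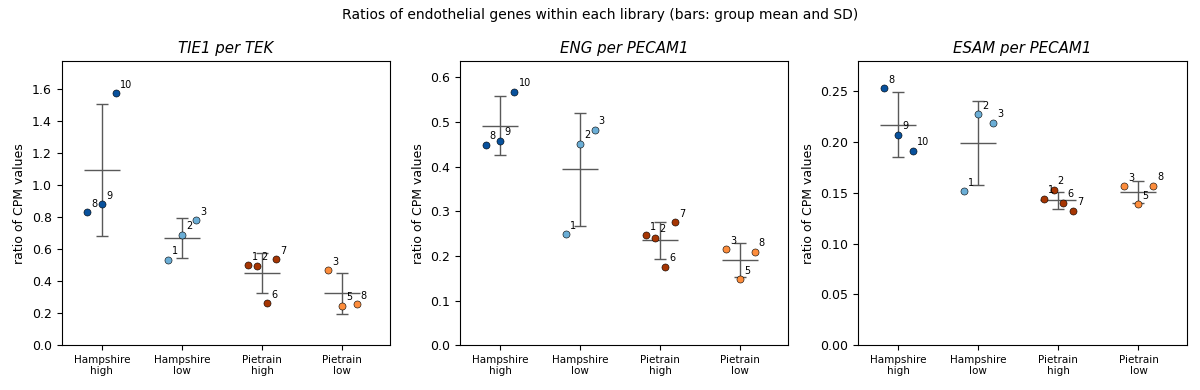
Ratios of CPM within each library (vertical axis from 0) for TIE1 per TEK, ENG per PECAM1 and ESAM per PECAM1 in the 4 groups, with points for pigs and bars for the group mean and SD. Hampshire high lies above Pietrain high in all 3 panels, and Hampshire low pig 1 is the Hampshire point nearest to the Pietrain pigs.

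The genes whose pattern over the 13 pigs was most like the mean pattern of the 7 genes were found by the root mean square distance of centred log2 CPM, for which the median of 12831 genes was 0.643. The 5 nearest genes outside the list were N4BP3 (distance 0.173), F11R (0.193), a gene without a symbol, ENSSSCG00000024561 (0.201), CLEC14A (0.201) and MYO1C (0.203). CLEC14A is a lectin of the endothelial surface and F11R a junctional adhesion molecule. CLEC14A stood at 37.1 to 40.9 CPM in Hampshire high, 26.8 to 31.6 in Hampshire low, 20.0 to 28.4 in Pietrain high and 16.4 to 30.7 in Pietrain low, so that, as for ESAM, the groups overlapped in Pietrain and not in Hampshire. Of the 7 genes themselves, PECAM1 (0.174) and ESAM (0.180) lay nearest to their common mean, and ENG (0.473) lay farthest from it. The 13 pigs and their scaling are shared by all these distances, which are a description without a test.

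The pathways around the receptors were described next, by counts of called genes in the Hampshire comparison, in which 26.6% of all genes were called, 12% as higher and 1788 of the 12228 tested as lower. Of the ligands and co-receptors of the VEGF pathway, 1 of 6 tested was called, VEGFB, higher in Hampshire high pigs (83.9 to 125 CPM) than in low pigs (46.8 to 81.1 CPM; log2 fold change 0.75, adjusted p = 0.0498). Of the angiopoietin pathway, 0 of 3 were called by edgeR. ANGPT2, the ligand that can oppose TEK signalling, had a log2 fold change of -0.42 (adjusted p = 0.237), and PTPRB, the phosphatase that acts on TEK, of -0.16 (0.532), the latter turning to 0.21 with the length trend removed.

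Of the ENG and BMP pathway, 3 of 7 were called, in opposite directions. ACVRL1, the type I receptor that works with ENG, was higher in high pigs (9.05 to 13.9 CPM against 5.63 to 7.92, log2 fold change 0.81, adjusted p = 0.0335). BMPR2, the type II receptor, was lower (45.0 to 52.3 CPM against 95.8 to 114, log2 fold change -1.08, adjusted p = 0.00318), and so was the signal transducer SMAD5 (log2 fold change -0.59, adjusted p = 0.0242). With the length trend removed, 1 of the 7 was called higher and 1 lower. The receptors ACVRL1 and BMPR2 are known partners of ENG, but BMPR2 and SMAD5 are also expressed in fibres and other cells.

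Of the junction partners, 0 of 9 were called, and 5 of the 9 log2 fold changes were above 0 (median 0.03). Changes were -0.44 for CTNNB1 (adjusted p = 0.0835) and -0.14 for CTNND1 (0.581), the catenins that bind cadherin tails. The largest was 1.05 for CLDN5 (adjusted p = 0.0585), named here after its values were seen. With the length trend removed, the CTNND1 change turned to 0.16, and 1 of 8 junction partners tested was called higher. Of the Notch pathway, which sets artery and tip cell identity, 0 of 5 were called, with 0.16 for the ligand JAG1 and 0.04 for the nuclear partner RBPJ. Of the transcription factors, 2 of 10 were called, HHEX as higher (log2 fold change 1.21, adjusted p = 0.0301) and MEF2C, which is also a factor of muscle fibres, as lower (-1.40, 0.00724). With the length trend removed, 0 of 9 transcription factors tested were called higher and 1 lower. Of the oxygen-sensing genes, 4 of 6 were called, all lower in high pigs, HIF1A (7.60 to 11.1 CPM against 20.0 to 23.7, log2 fold change -1.12, adjusted p = 0.00619), EGLN1 (-0.74, 0.00944), ARNT (-0.61, 0.0275) and HIF1AN (-0.57, 0.0432). Without single pigs the latter count ran from 2 to 3, with 2 without high pig 9 or 10 or low pig 2 or 3, and it was 2 with the length trend removed.

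A second list of 19 endothelial markers was tested beside the 7 genes. In Hampshire, 8 were called, all higher in high pigs, where 12% of all genes were called higher, and the median log2 fold change was 0.44 beside 0.03 over all genes. The 4 with the smallest adjusted p were RAMP2, a partner of the adrenomedullin receptor (43.6 to 74.1 CPM against 18.2 to 23.8, log2 fold change 1.47, adjusted p = 0.00433), EGFL7, a secreted factor of vessel growth (63.0 to 81.7 CPM against 28.4 to 42.5, 0.97, 0.0099), PROCR, the protein C receptor (7.08 to 36.1 CPM against 2.26 to 3.92, 2.65, 0.0128), and THBD, the thrombin receptor thrombomodulin (16.0 to 25.2 CPM against 9.42 to 13.9, 0.91, 0.0219). RAMP2, PROCR and THBD fall in the class of the shortest span and EGFL7 in class 2, whose median log2 fold changes over all genes were 0.45 and 0.25. With the length trend removed, 7 of 18 markers were called higher, with a median of 0.46, against 1023 of 9945 genes called higher. The count of 8 was 3 without high pig 9, high pig 10 or low pig 1, and 4 without low pig 2 or 3 or in a fit over all 13 pigs. In Pietrain, 0 of the 19 were called, with a median of 0.22. Between the breeds at high loin weight, 10 of the 19 were called higher and 2 lower in Hampshire, against 22.6% of all genes called higher and 46.8% in either direction. PROCR, THBD and PECAM1 are also found on blood cells.

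Markers of other cell types were read against the same shares of all genes in Hampshire, 26.6% called and 12% called higher. Of 11 genes of pericytes and smooth muscle, which wrap the vessels, 3 were called in Hampshire, TAGLN (77.0 to 127 CPM against 42.2 to 56.1, log2 fold change 1.12, adjusted p = 0.00865) and ACTA2 (0.82, 0.0169) as higher and ABCC9 as lower (-1.61, 0.00182), and their summed level was 319 to 463 CPM in high and 266 to 342 CPM in low pigs. LYVE1, a marker of lymphatic endothelium and some macrophages, was called higher (6.71 to 12.1 CPM against 1.16 to 2.48, log2 fold change 2.21, adjusted p = 0.00461), 1 of 2 tested in its list. Leukocyte genes had 0 of 5 called. Their summed level was 28.9 to 40.9 CPM in high and 17.4 to 25.8 CPM in low pigs, without overlap, as for 45.9% of single genes in this comparison. All 5 log2 fold changes were above 0 (median 0.55), with 0.33 for PTPRC and 0.24 for CD68. CSF1R, a macrophage receptor named here after its values were seen, had the largest difference of the 5, with means of 12.4 and 5.25 CPM (log2 fold change 1.23, adjusted p = 0.0638 with edgeR), and was called with DESeq2. The platelet gene ITGA2B was not called (0.83, adjusted p = 0.0864), GP1BB was below the filter at a mean of 0.04 CPM, and PF4 and PPBP were not matched. The name of the ITGA2B row is uncertain, since the reference table gives its identifier another name.

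Red cell genes had 0 of 3 called in Hampshire, with summed levels of 82.4 to 239 CPM in high and 45.4 to 175 CPM in low pigs, and log2 fold changes of 0.29 for HBB and 0.20 for ALAS2. Fibroblast genes had 2 of 4 called higher, DCN (1.55, adjusted p = 0.0082) and COL3A1 (1.44, 0.0341), and adipocyte genes 1 of 2, CIDEC (2.20, 0.0358), beside 12% of all genes. Of 5 muscle fibre genes, CKM (0.98, 0.0325) and the row labelled MYH7 (1.17, 0.0469) were called higher and the row labelled MYH1 lower (-1.25, 0.039), the names of both myosin rows being uncertain. Between the breeds at high loin weight, 4 of 5 leukocyte genes and 6 of 11 genes of pericytes and smooth muscle were called higher in Hampshire, the direction of ENG, TIE1 and ESAM, and 1 of the 11, ABCC9, was called lower (log2 fold change -1.96, adjusted p = 1.86e-05), against 22.6% of all genes called higher and 46.8% in either direction. Also higher were 2 of 4 fibroblast, 2 of 5 muscle fibre, 1 of 3 lymphatic and 1 of 1 platelet genes, with 0 lower. Red cell and adipocyte genes had 0 called. The part of other cell types in the endothelial values was not tested. In Pietrain, 0 genes of these lists were called by edgeR.

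The calls of the list genes in Hampshire differed in how far they rested on single pigs. Of the 24 list genes named above as called, 11 were still called when each of the 6 Hampshire pigs was left out in turn, namely BMPR2, MEF2C, RAMP2, EGFL7, PROCR, HIF1A, EGLN1, ABCC9, TAGLN, LYVE1 and DCN. The other 13, among them VEGFB, ACVRL1, HHEX and THBD, lost the call without at least 1 pig, and the highest adjusted p then was 0.175 for VEGFB, 0.112 for ACVRL1, 0.108 for HHEX and 0.0781 for THBD. Over all genes, 3256 were called with the 6 pigs, and 1224 (without low pig 3) to 3049 (without high pig 8) with 1 left out. How many of all called genes kept the call without each pig was not counted. The 24 were also picked from their lists by adjusted p.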

How the data were processed

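RNA of longissimus lumborum from 13 pigs was made into TruSeq v2 libraries, which do not mark strand, and sequenced as single-end reads in 4 technical runs. Per the labels, the submitters' processing notes name FastQC, STAR, RSEM, DESeq2 and Sscrofa10.2, and which program made the counts is not given in the sources used here. The authors deposited raw read counts per Ensembl gene, 1 table per breed, which were joined by identifier (25322 genes, 13168 with a symbol). Further deposited columns hold the authors' own DESeq2 comparisons of high and low loin weight (mean level, fold change, its error, statistic and p-values). Their values were not used, only the symbols and coordinates beside them.

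The members and lists were chosen with earlier results of these data known. Of 142 listed symbols, 113 were matched. Counts were tested in R 4.3.3 with edgeR 4.0.16 (filterByExpr, TMM, quasi-likelihood F test), within each breed, as the study did, and over 13 pigs for the interaction and breed contrasts. Alternatives were DESeq2 1.42.0, other scalings, other count filters, the fold threshold, the samples in the fit, CPM without TMM, removal of the gene length trend (lowess per pig, span 0.4) and each pig left out. Single genes were also compared by an exact two-sided permutation test of mean log2(CPM + 0.5) with scipy 1.17.1. On simulated counts with 200 genes changed at a log2 fold of 1.58, edgeR recovered 143 of 197 tested for Hampshire, 119 of 195 for Pietrain, 45 of 198 for the interaction, 124 of 198 for the breeds at low and 118 of 196 at high loin weight, with 13, 9, 3, 6 and 6 false calls. Named were all matched members, of each list the called genes (at most 4, by adjusted p) or else the 2 with the highest mean CPM, and the 5 genes nearest in pattern. Levels per transcript length, promoter motifs and gene or protein sequences were not analysed here.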

Additional observations from a re-analysis of the deposited data

How the results depend on the processing

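Of the results that answer a comparison, the counts of called endothelial genes in Pietrain (0), for the interaction (0) and between the breeds at high loin weight (3) stayed within 1.5 times of these values under the alternatives run, and each pig left out gave 2 to 3 for the last. The Hampshire count of 1 was 0 in 1 fit over all 13 pigs, 0 with at least 10 counts required in every pig, 0 without a filter, 2 with DESeq2 and 2 with the length trend removed, and 0 to 1 with each pig left out, being 0 without high pig 9 or 10 or low pig 1, 2 or 3. The count of 0 between the breeds at low loin weight was 1 with at least 10 counts required, 1 with DESeq2, 1 with the length trend removed, and 0 to 2 with each pig left out, being 1 without Pietrain high pig 6 and 2 without Pietrain low pig 3. With the length trend removed, signs turned in Hampshire for KDR (0.17), FLT1 (0.35), PTPRB (0.21), CTNND1 (0.16), HBB (-0.10) and CD68 (-0.15), and between the breeds at high loin weight for KDR (0.29), FLT1 (0.44) and TEK (0.42). With upper quartile scaling TEK turned in Pietrain (0.017). With each pig left out, log2 fold changes in Hampshire ran from -0.29 to 0.046 for KDR, -0.20 to 0.11 for FLT1, -0.14 to 0.17 for TEK, -0.13 to 0.10 for RBPJ, -0.011 to 0.33 for JAG1, -0.17 to 0.56 for HBB, -1.03 to 0.65 for ALAS2 and -0.18 to 0.55 for CD68. In Pietrain they ran from -0.29 to 0.36 for PECAM1, -0.27 to 0.76 for KDR, -0.30 to 0.84 for FLT1, -0.27 to 0.26 for TEK, -0.16 to 0.64 for ENG and -0.42 to 0.28 for ESAM. Between the breeds at high loin weight they ran from -0.32 to 0.12 for KDR, -0.28 to 0.28 for FLT1 and -0.28 to 0.12 for TEK. The mean ESAM level in Hampshire high was 22.3 CPM without TMM factors. Without these factors TIE1, ENG and ESAM overlapped between Hampshire high and low. ENG and TIE1 then also overlapped between the breeds at low loin weight, and TIE1 at high loin weight. The causes were not tested. No paired analysis was possible because the groups compared share at most 1 pig number, and a number repeated in the other breed is another pig. Groups of 3 or 4 pigs, 1 library each, limit the precision, and the kit does not separate overlapping genes on opposite strands.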
